A study of Homo sapiens with 2 samples.

Results

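Mitochondrial ribosomal proteins are the protein subunits of the ribosome inside mitochondria. They were taken as the probe sets that name exactly 1 gene with a symbol starting with MRPL or MRPS and a number. This gave 141 of 47693 probe sets and 76 of 18392 genes: 48 genes of the large subunit (MRPL), 27 of the small subunit (MRPS) and 1 non-coding gene, MRPL20-AS1. RNA came from PC3, a human prostate cancer line of metastatic origin that lacks functional p53 and grows without androgen. The control array held cells that received DMSO, the solvent. The second array held cells that received fluphenazine, a dopamine receptor blocker of the phenothiazine class, at 10 µM. The sources used here do not give the length of treatment. The kit named for labelling was designed for whole-transcript arrays, while these probe sets belong to an array read near the 3' ends of transcripts, and how they were combined is not stated. Each treatment has 1 array, so the spread between cultures is unknown and no difference below could be tested. A difference is the log2 signal with fluphenazine minus that with DMSO.

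The mitochondrial ribosome, or mitoribosome, translates only the few messenger RNAs of the mitochondrial genome, all of which encode subunits of the respiratory chain and the ATP synthase. Its ribosomal RNAs are transcribed inside mitochondria. Its proteins are all nuclear-encoded, made in the cytosol and imported. Some descend from bacterial ribosomal proteins, and others occur only in mitochondrial ribosomes. Their promoters are commonly described as targets of ETS factors such as GABPA, of YY1 and of NRF1.

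RefSeq promoter windows on GRCh38.p14 show these motifs beside members that lay at the ends of the range of differences. Each window runs from 250 bases before to 50 bases after a gene start. Those of the member with the lowest and the highest difference in each subunit, among members with a window, are given first. MRPL46, which faces MRPS11 head to head, and MRPS12 follow. Capitals mark the ETS motif CCGGAAG and the YY1 motif AAGATGGC, read on either strand, and the sequences run 5′ to 3′ along the gene's own strand.
MRPL16 (chr11:59810729-59811028, minus strand): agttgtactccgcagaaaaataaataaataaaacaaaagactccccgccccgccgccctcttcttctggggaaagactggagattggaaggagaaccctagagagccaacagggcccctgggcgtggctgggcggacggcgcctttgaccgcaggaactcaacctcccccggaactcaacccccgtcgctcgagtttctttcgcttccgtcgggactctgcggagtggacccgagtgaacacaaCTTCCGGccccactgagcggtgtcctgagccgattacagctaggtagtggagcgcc
MRPL50 (chr9:101398569-101398868, minus strand): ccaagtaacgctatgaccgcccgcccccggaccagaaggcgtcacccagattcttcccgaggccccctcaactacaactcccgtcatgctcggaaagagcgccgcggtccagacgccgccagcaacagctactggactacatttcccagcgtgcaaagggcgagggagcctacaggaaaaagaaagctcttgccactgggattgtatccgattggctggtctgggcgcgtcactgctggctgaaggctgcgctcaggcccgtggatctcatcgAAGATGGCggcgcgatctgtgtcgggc
MRPS11 (chr15:88467458-88467757, plus strand): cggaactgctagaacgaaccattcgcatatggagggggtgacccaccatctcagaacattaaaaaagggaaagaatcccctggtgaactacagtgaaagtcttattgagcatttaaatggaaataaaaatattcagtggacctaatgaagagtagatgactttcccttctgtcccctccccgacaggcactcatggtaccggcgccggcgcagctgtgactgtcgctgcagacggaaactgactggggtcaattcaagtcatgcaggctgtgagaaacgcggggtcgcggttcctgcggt
MRPS21 (chr1:150293611-150293910, plus strand): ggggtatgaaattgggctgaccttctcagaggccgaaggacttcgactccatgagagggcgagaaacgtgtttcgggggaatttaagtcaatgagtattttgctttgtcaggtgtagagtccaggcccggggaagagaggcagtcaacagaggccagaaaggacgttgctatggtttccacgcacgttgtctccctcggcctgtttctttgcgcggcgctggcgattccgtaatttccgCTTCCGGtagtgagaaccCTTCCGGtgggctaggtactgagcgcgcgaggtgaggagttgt
MRPL46 (chr15:88467339-88467638, minus strand): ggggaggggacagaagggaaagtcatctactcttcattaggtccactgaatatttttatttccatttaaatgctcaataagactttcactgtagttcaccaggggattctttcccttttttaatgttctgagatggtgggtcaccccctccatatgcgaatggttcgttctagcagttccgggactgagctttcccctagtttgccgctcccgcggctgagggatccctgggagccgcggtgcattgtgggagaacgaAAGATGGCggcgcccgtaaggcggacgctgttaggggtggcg
MRPS12 (chr19:38930694-38930993, plus strand): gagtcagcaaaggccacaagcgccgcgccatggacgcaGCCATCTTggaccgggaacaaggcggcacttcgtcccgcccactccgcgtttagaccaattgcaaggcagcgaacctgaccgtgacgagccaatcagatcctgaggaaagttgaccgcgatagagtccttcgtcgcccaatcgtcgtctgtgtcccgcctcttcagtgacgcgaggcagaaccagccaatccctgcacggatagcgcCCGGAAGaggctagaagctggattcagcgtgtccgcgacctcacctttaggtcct

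MRPL16 had 1 ETS match, 6 bases before its start, and MRPS21 had 2 around its start. MRPL50 and MRPL46 each had a YY1 match after the start, at 23 and at 8 bases. MRPS12 held both motifs, with ETS at -5 and YY1 at -212, and MRPS11 held neither. Matches were thus present at both ends of the range of differences.

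Of the 75 protein genes, 57 were lower and 18 were higher with fluphenazine, so 76.0% were lower. The median difference was -0.09, or 1.07-fold. Among all 9196 genes above the expression floor 51.7% were lower, and their median was -0.01. The floor is a mean log2 signal of 6.11, the median over all genes. Every member lay above it, so none was left out. The 7470 genes whose mean signal lay within the range of the members were also near even, with 51.2% lower.

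The shift was small for every gene. No member reached 1.5-fold or 2-fold, which 0.435% and 0.0326% of all genes above the floor did in either direction. 6 members were lower by at least 0.2, or 1.15-fold, against 9.35% of all genes, and none was higher by that much, against 8.56%. By at least 0.1, 36 members were lower and 3 were higher, against 25.7% and 23.1% of all genes. The members also varied less among themselves than genes at large, with an SD of 0.09 over members and 0.16 over all genes. This was not particular to them. In the related lists below the SD ran from 0.05 (cytosolic ribosomal proteins) to 0.20 (mitochondrially encoded genes), with 0.10 for the respiratory chain. Probe sets of 1 member gene differed with a pooled SD of 0.10 over 20 genes, and 36 of the 75 members lay within 0.1 of no difference. Beside this, all 24 probe sets of the bacterial poly-A spike-ins, added to the RNA before labelling, had less signal with fluphenazine, with a median difference of -0.22. Hybridization controls, added after labelling, had a median of -0.07 with 14 of 18 probe sets lower. The part of either in the shift of the members was not tested.

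**Figure D1:**
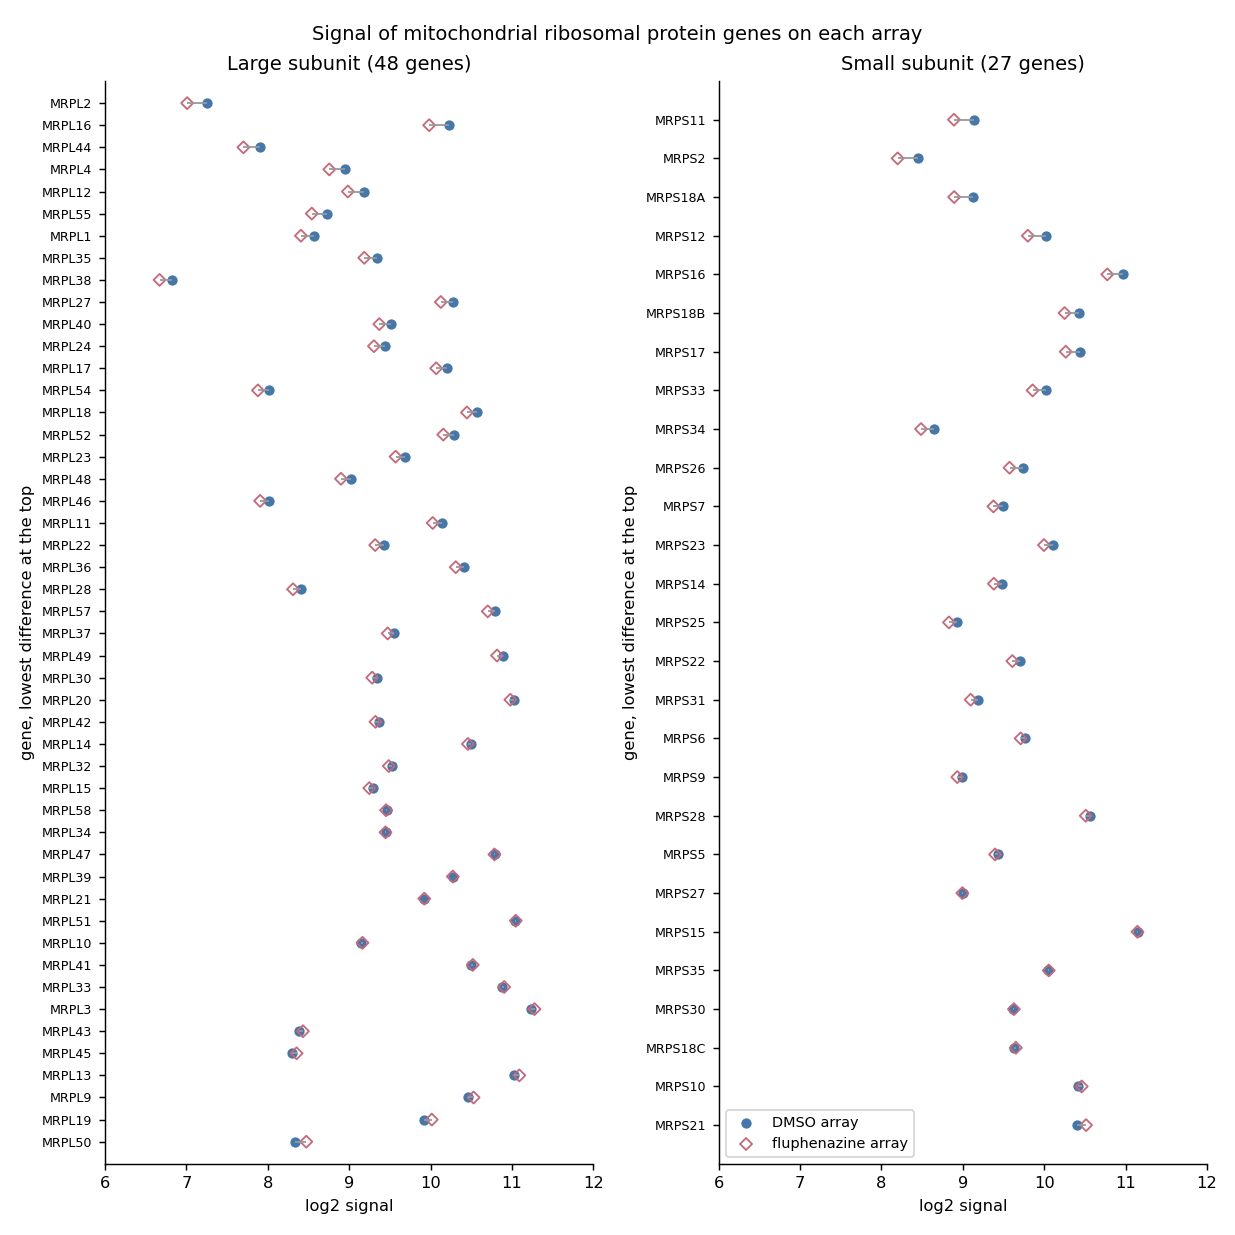
Log2 signal of the 48 large-subunit and 27 small-subunit genes on the DMSO array (filled circles) and the fluphenazine array (open diamonds), 1 value per array, joined by a line and ordered by their difference. In the upper part of each panel the fluphenazine value lies to the left of the DMSO value, by at most 0.25.

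The large and the small subunit differed from DMSO by similar amounts. In the large subunit 35 of 48 genes (72.9%) were lower, and the median difference was -0.08, a 1.06-fold change. In the small subunit 22 of 27 genes (81.5%) were lower, and the median difference was -0.10, a 1.07-fold change. The medians lay 0.02 apart, and this order turned when all probe sets of a gene were averaged (-0.08 for the large and -0.07 for the small subunit). No difference between the subunits can be read from these arrays. MRPS18A and MRPS30 carry small-subunit names but sit in the large subunit of solved mammalian structures. MRPS18A was at -0.23 and MRPS30 at 0.01. With subunits assigned by structure, and with 4 mitoribosomal proteins of other names added, the medians were -0.09 and -0.10.

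**Figure D2:**
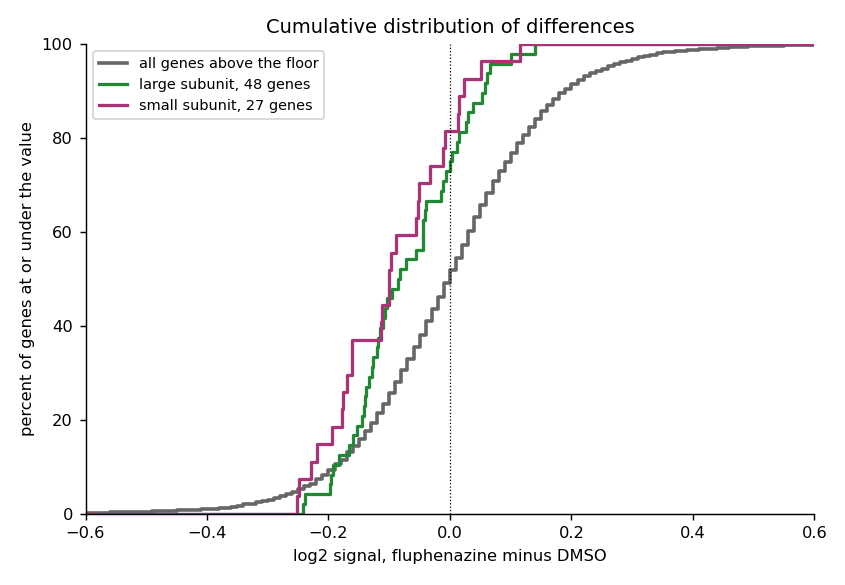
Cumulative percent of genes (vertical axis) at or under each log2 difference, fluphenazine minus DMSO (horizontal axis), for all 9196 genes above the floor and for each subunit. The curves of the large and the small subunit reach 72.9% and 81.5% left of 0, where the curve of all genes has 51.7%, and both end at 0.14 or below.

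In the large subunit, 3 genes for proteins of the catalytic core were among the 4 lowest values. MRPL2, whose bacterial counterpart lies at the peptidyl transferase centre, had a log2 signal of 7.25 with DMSO and 7.01 with fluphenazine, a difference of -0.24. MRPL16, near the same centre, was at 10.22 and 9.98, also a difference of -0.24. MRPL4, whose counterpart lines the start of the exit tunnel, was at 8.95 and 8.75, a difference of -0.20, and its 3 probe sets lay between -0.21 and -0.14. MRPL3, mutated in an inherited cardiomyopathy, belongs to the same core and did not share this, at 11.24 and 11.28. The 4 genes had a median of -0.22, with 3 lower, where 76.0% of all members were lower. This region and those below were assigned with the values known, so their counts and medians are descriptions.

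The stalk recruits translation factors to the large subunit. MRPL12, which forms the stalk and is also reported to bind the mitochondrial RNA polymerase, was at 9.18 with DMSO and 8.98 with fluphenazine, a difference of -0.19. MRPL11, at the base, was at 10.14 and 10.03, a difference of -0.11. MRPL10, which anchors MRPL12, was at 9.15 and 9.16. The 3 genes thus spread from -0.19 to 0.01.

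All 8 genes assigned to the central protuberance, the crown of the large subunit, were lower with fluphenazine, with a median of -0.13. The share lower was 76.0% over all members and 51.7% over all genes above the floor. MRPL55 was at 8.72 with DMSO and 8.54 with fluphenazine, a difference of -0.18. MRPL38 was at 6.82 and 6.67, a difference of -0.15, MRPL27 at 10.27 and 10.13, and MRPL40 at 9.51 and 9.37. MRPL18 (-0.13), MRPL48 (-0.12) and MRPL46 (-0.11) followed closely. MRPL58, a peptidyl-tRNA hydrolase that rescues stalled mitoribosomes, was the mildest at -0.01. The assignment to regions was made with the values known, so the count is a description.

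Around the polypeptide exit 6 of 7 genes (85.7%) were lower, with a median of -0.11. By comparison, 76.0% of all members and 51.7% of all genes above the floor were lower. MRPL24 and MRPL17 were both at -0.14, MRPL23 was at -0.12 and MRPL22 at -0.11. MRPL32, which is matured by a protease of the inner membrane, was at -0.04, and MRPL47 at -0.01. MRPL45, which holds the mitoribosome at the inner membrane, was the exception at 8.30 with DMSO and 8.35 with fluphenazine.

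Other large-subunit genes completed the lower end. MRPL44, which has a fold of the RNase III family, was at 7.90 with DMSO and 7.70 with fluphenazine, a difference of -0.20. Its second probe set lay under the floor and gave 0.12. MRPL1 was at 8.57 and 8.41, a difference of -0.17, and MRPL35 at 9.34 and 9.18, a difference of -0.16. Both probe sets of MRPL35 above the floor were lower, at -0.16 and -0.22.

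The highest large-subunit value was that of MRPL50, a protein found only in mitochondrial ribosomes. It had a log2 signal of 8.33 with DMSO and 8.47 with fluphenazine, a difference of 0.14. Its second probe set above the floor gave 0.12, and its dim probe set under the floor gave 0.26. MRPL19 was at 9.91 and 10.01, a difference of 0.10, and its dimmer probe sets under the floor gave -0.09 and 0.32. MRPL9 (0.07), MRPL13 (0.06) and MRPL45 (0.06) came next. The second probe set of MRPL9 gave -0.03. These upper values were smaller in size than those at the lower end.

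In the small subunit the 2 lowest values belonged to genes assigned here to the body and platform. That part carries the decoding site and contacts the large subunit. Of the 16 genes assigned there 15 (93.8%) were lower, with a median of -0.11. The share lower was 76.0% over all members and 51.7% over all genes above the floor. MRPS18B (-0.18) and MRPS18C (0.02) were not counted in any region of the small subunit. MRPS11, of the platform, had a log2 signal of 9.14 with DMSO and 8.89 with fluphenazine, a difference of -0.25. Its second probe set, dim and under the floor, gave 0.16. MRPS2 was at 8.45 and 8.20, also a difference of -0.25, from a single probe set.

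MRPS12, the counterpart of the bacterial decoding protein that streptomycin mutations alter, was at 10.02 with DMSO and 9.80 with fluphenazine, a difference of -0.22. Its other probe set above the floor gave -0.08, and those under the floor gave 0.03 and 0.09. MRPS16, mutated in an inherited defect of mitochondrial translation, was at 10.97 and 10.77, a difference of -0.19, yet its second bright probe set was higher, at 0.13. MRPS17 (-0.18) and MRPS34 (-0.16) were measured by 1 probe set each. MRPS22, mutated in another such defect, was at 9.71 and 9.61, and its 4 probe sets were all lower, from -0.19 to -0.08. The exception among the 16 genes assigned to the body and platform was MRPS21, at 10.40 and 10.51, the highest value of the small subunit (0.11).

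The head of the small subunit binds transfer RNAs. Of its 7 genes 5 (71.4%) were lower, with a median of -0.09. By comparison, 76.0% of all members and 51.7% of all genes above the floor were lower. MRPS33 was at 10.03 with DMSO and 9.86 with fluphenazine, a difference of -0.17, and MRPS7 was at 9.49 and 9.38, a difference of -0.11. MRPS10, at 0.05, and MRPS35, at 0.01, were higher. The 3 probe sets of MRPS10 spanned -0.11 to 0.05, so its direction was not settled by these probe sets.

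The 3 MRPS18 genes are paralogues related to 1 bacterial ribosomal protein, and the naming of the solved structures keeps only MRPS18C as its counterpart. MRPS18A was at 9.12 with DMSO and 8.89 with fluphenazine, a difference of -0.23, and its second probe set gave -0.14. MRPS18B was at 10.43 and 10.25, with both probe sets at -0.18. MRPS18C was at 9.63 and 9.65, a difference of 0.02. MRPS18A and MRPS18B were thus lower by every probe set, and MRPS18C was not. The bright value of MRPS18C rests on 1 probe set, as its other 2 were under the floor. MRPS30 was at 9.61 and 9.63, and its second probe set above the floor gave -0.07.

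By the naming of the solved structures, the 45 genes with a bacterial counterpart had a median of -0.09 with 35 lower. The 30 genes named as particular to mitochondrial ribosomes, MRPS18A and MRPS18B among them, had a median of -0.09 with 22 lower. Within the subunits the order went opposite ways. In the large subunit the medians were -0.10 with a counterpart (23 of 30 lower) and -0.08 without (12 of 18 lower). In the small subunit they were -0.06 (12 of 15 lower) and -0.11 (10 of 12 lower). Signal level moved with the difference. Of the 5 genes with a mean log2 signal of 11 or more only 2 were lower (median 0.01), whereas all 5 genes under 8 were lower (median -0.15). In all genes the corresponding medians were 0.00 and -0.02. Across the 75 members signal and difference correlated with r = 0.33, over genes that share both arrays. Whether signal level plays a part in the differences was not tested.

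Probe sets not used for a gene's value gave a similar picture where they were bright. Of 28 such probe sets above the floor 22 were lower, with a median of -0.10. The 37 probe sets under the floor had 17 lower and a median of 0.02. Among the 20 genes read by 2 or more bright probe sets, 10 had all of them lower, 1 (MRPL50) had all of them higher and 9 were mixed. Bright probe sets over 0.25 apart occurred in 2 genes, MRPS16 and MRPL57, a small protein found only in mitochondrial ribosomes. The probe sets of MRPL57 ran from -0.26 to 0.15, with -0.09 for the brightest. Counting dim probe sets too, 14 genes had such a gap. Those whose gap is not given above were MRPL39, MRPL47, MRPS5, MRPS15, MRPS18C, MRPS23, MRPS27 and MRPS31. Their lowest probe set was at -0.41 (MRPS27) and their highest at 0.64 (MRPS18C), both under the floor.

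**Figure D3:**
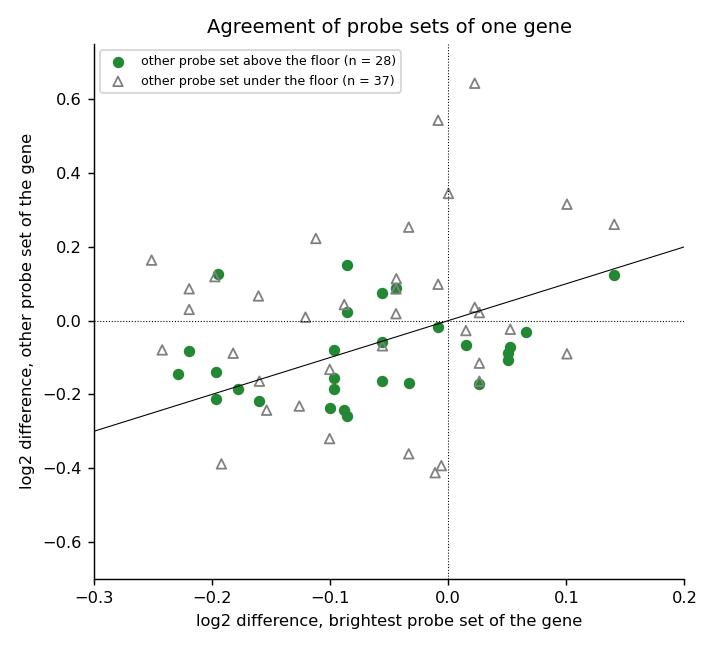
Log2 difference of every other probe set of a member gene (vertical axis) against that of its brightest probe set (horizontal axis), with the line of equality. The 28 filled circles are probe sets above the floor, 22 of them below 0, and the 37 open triangles are those under the floor, which scatter from -0.41 to 0.64.

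The non-coding MRPL20-AS1, which lies beside MRPL20, had a log2 signal of 8.36 with DMSO and 8.24 with fluphenazine, a difference of -0.12. MRPL20 itself was at -0.04. Of the 77 protein genes with such symbols in RefSeq, 2 had no probe set of their own. The probe set shared by MRPL53 and CCDC142 gave -0.17, and that of MRPS24 and its read-through gene gave -0.03. A probe set of MRPL51 and SPTLC1 gave -0.21, while MRPL51 by its own probe set was at 0.01. These shared probe sets entered no count.

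The promoters of the members held ETS and YY1 motifs in a larger share than promoters of all genes above the floor, a difference that was not tested. Of the 75 genes 67 matched RefSeq windows, 83 in all, since 11 genes have several starts. The ETS motif CCGGAAG was in 38.6% of these windows, against 18.3% of 11280 windows of genes above the floor and 10.3% of all 35116 windows of the same length. The YY1 motif AAGATGGC was in 26.5%, against 5.22% and 2.89%. The NRF1 core GCGCATGC was in 7.23%, against 5.20% and 3.05%, the E-box CACGTG in 10.8%, against 9.57% and 7.26%, and the SP1 motif GGGCGG in 59.0%, against 67.3% and 45.0%. The cAMP element TGACGTCA and the ATF4 composite element TGATGNAA were each in 1.20% of member windows, against 2.94% and 2.07% of windows of genes above the floor. MRPL55, at -0.18, held the latter. Both strands were read, and matches of different motifs were counted independently.

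The ETS and YY1 matches lay close to the gene start, unlike those of SP1 (24 of 106 within 50 bases) and the E-box (1 of 9). Of 43 ETS matches 30 began within 50 bases of it, at a median of -26. Of 23 YY1 matches 16 did so, at a median of 9, and 15 began after the start. Windows of 1 gene can overlap, so some matches were counted more than once. Members with and without a match had similar differences. The 29 genes with an ETS match had a median of -0.11 with 22 lower, and the 38 without one had -0.08 with 30 lower. For YY1 the medians were -0.06 over 20 genes with 15 lower and -0.10 over 47 genes with 37 lower. A match is only a run of letters and does not show that a factor binds.

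**Figure D4:**
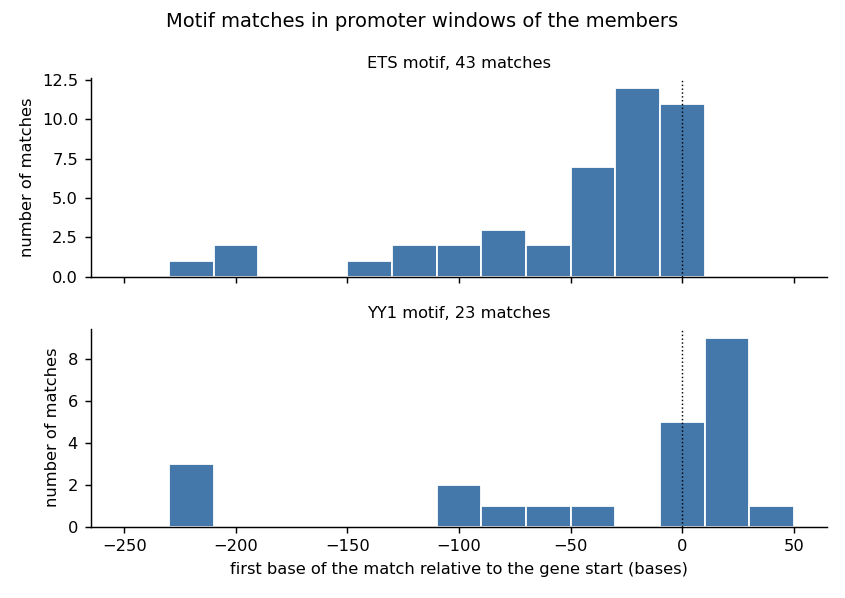
Number of matches (vertical axis) by the position of their first base relative to the gene start (horizontal axis, bases) in the 83 windows of member genes, for the ETS motif (43 matches) and the YY1 motif (23 matches). ETS matches gather just before the start, at a median of -26, and YY1 matches just after it, at a median of 9.

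Some members share their promoter region with a gene on the other strand. For 20 members a measured gene started head to head within 1000 bases. One such pair joined both subunits: MRPS11 (-0.25) and MRPL46 (-0.11) start 320 bases apart, and both were lower. Of 15 pairs with a neighbour above the floor that is no member, 12 members and 9 neighbours were lower. Both genes were lower in 6. GGA3, which faces MRPS7, was counted as lower at -5e-05. Of all genes above the floor 51.7% were lower. The neighbours had a median of -0.03 and the members in these pairs -0.07. MRPS12 (-0.22) faces SARS2, a mitochondrial seryl-tRNA synthetase gene. SARS2 was at 6.13 with DMSO and 6.29 with fluphenazine, a difference of 0.17, close to the floor of 6.11. MRPL57 (-0.09) faces SKA3, a kinetochore gene, at -0.35. MRPL50 (0.14) faces ZNF189, at -0.15.

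All 4 measured mitoribosomal proteins with other symbols were lower. Over all genes above the floor 51.7% were lower, with a median of -0.01. GADD45GIP1, of the large subunit and also known as CRIF1, was at 9.68 with DMSO and 9.38 with fluphenazine, a difference of -0.31. CHCHD1 was at 12.08 and 11.89, a difference of -0.19, PTCD3, a pentatricopeptide repeat protein of the small subunit, at -0.08 and DAP3, a GTP-binding protein of the head, at -0.05. Assembly factors, which fold and modify the ribosomal RNAs and join the proteins to them, had a median of -0.05 over 27 genes above the floor, with 19 lower. RCC1L was lowest, at 7.50 and 7.16, a difference of -0.34, and ERAL1, a chaperone of the small ribosomal RNA, was highest at 0.11. Factors of mitochondrial translation had a median of -0.03, with 11 of 15 lower, from the initiation factor MTIF3 at -0.19 to the elongation factor GFM1 at 0.12.

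Regulators and transcription factors of mitochondria had a median of -0.02, with 10 of 12 lower. That median was close to the -0.01 of all genes above the floor, of which 51.7% were lower. TFAM, which packages mitochondrial DNA and takes part in its transcription, was lowest at -0.14, and GABPA, an ETS factor, was highest at 0.13. The gene of YY1 was at 11.21 with DMSO and 11.22 with fluphenazine, and that of NRF1 was under the floor. The list of mitochondrial aminoacyl-tRNA synthetases had a median of -0.07, with 14 of 19 lower. It ran from AARS2 at -0.29 to GARS1, which also serves the cytosol, at 0.22. This list also holds QRSL1 (-0.002), GATB (-0.09) and GATC (-0.07), amidotransferase subunits that are not synthetases. All of these were counted as lower.

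The partners of the mitoribosome in the respiratory chain were mostly lower, while its counterpart in the cytosol lay near 0. Over all genes above the floor 51.7% were lower and 48.2% higher, with a median of -0.01. Nuclear-encoded respiratory chain and ATP synthase genes had a median of -0.07, with 55 of 68 (80.9%) lower, close to the members, from NDUFB7 at -0.35 to NDUFA5 at 0.27. Cytosolic ribosomal proteins had a median of 0.01, with 23 of 50 (46.0%) lower, from RPL35A at -0.12 to RPS25 at 0.17. Their median signal was 13.47 with DMSO, far brighter than the members' 9.61. Of the mitochondrially encoded genes all 5 above the floor were higher, with a median of 0.08, from COX2 at 0.02 to ATP6 at 0.50. Differences between these lists were not tested.

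**Figure D5:**
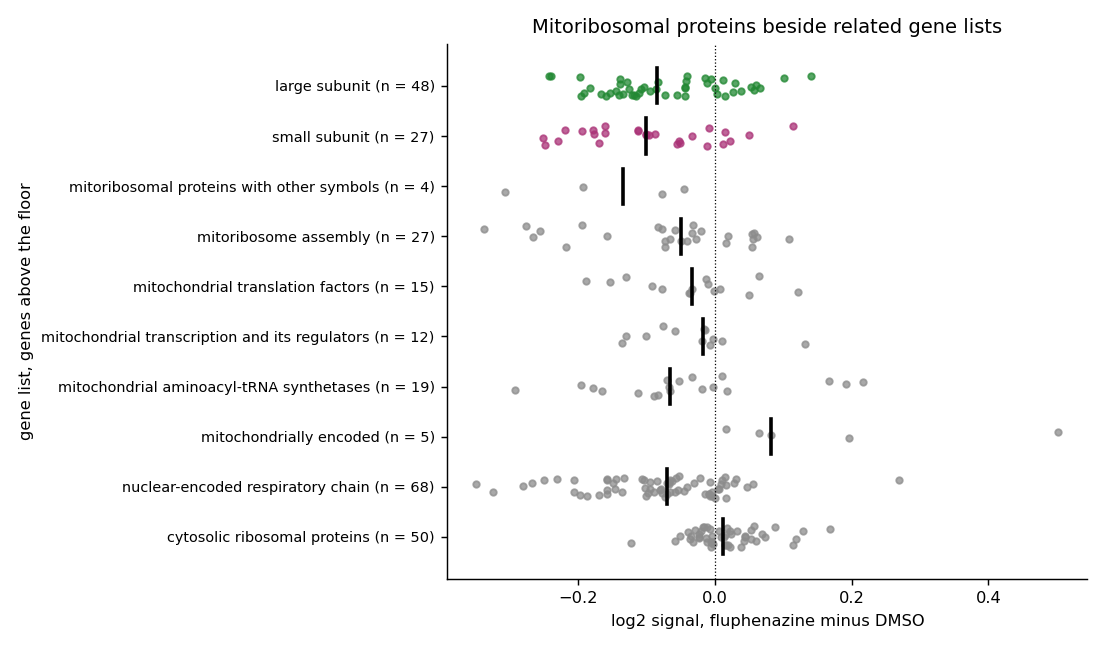
Log2 difference, fluphenazine minus DMSO (horizontal axis), of each gene above the floor, by gene list (vertical axis), with a black bar at the median. Medians lie at -0.08 and -0.10 for the subunits, -0.07 for the respiratory chain, 0.01 for cytosolic ribosomal proteins and 0.08 for mitochondrially encoded genes.

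The markers went with an epithelial line. All 5 epithelial markers (KRT8, KRT18, KRT19, EPCAM and CDH1) were above the floor. Of 7 markers of blood, endothelial and connective tissue cells 6 were under it, and PECAM1 was at 8.76 with DMSO and 8.49 with fluphenazine. Of the prostate markers KLK2 was under the floor, and KLK3 was at 6.93 and 6.90.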

How the data were processed

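The submitters' processing notes name RMA, Transcriptome Analysis Console 3.1 and Affymetrix Expression Console 1.4 without their roles. Per the labels' protocols, total RNA was column-purified and labelled with a whole-transcript kit. The deposited table holds log2 signals, judged from values of 1.60 to 14.28 and from RMA. After sorting, its 2 columns differed by at most 0.13, so such values show change relative to other genes, not total RNA. Probe sets were named by the platform annotation of 2016, and symbols were updated through gene identifiers. Only the 37151 probe sets with 1 gene were used. A gene's value is that of its brightest probe set. The floor is the median over genes of the mean of both arrays. The members, gene lists, regions and thresholds were chosen with earlier results of these data known. Genes were named by rank of difference in each subunit, by disagreeing probe sets and by role, with the lowest and highest of each related list. Alternatives were other scalings, floors, thresholds, probe set summaries and subunit assignments. Promoter windows are from RefSeq, GRCh38.p14. The sources used here do not give the authors' build. Python 3.11.15, numpy 2.4.6, pandas 2.3.3 and matplotlib 3.10.9 were used.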

Additional observations from a re-analysis of the deposited data

How the results depend on the processing

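The arrays' number, 1 for each treatment, limits every value, and probe sets of 1 member gene disagree by about as much as its difference. Over 12 alternatives the large-subunit median stayed between -0.09 and -0.06 and the small-subunit median between -0.11 and -0.07. The difference between the subunits ran from -0.01 to 0.04 and was negative only with all probe sets averaged. Lower genes ran from 29 of 41 (floor at the 75th percentile) to 37 of 51 (by structure) in the large subunit, and from 21 to 24 in the small one. Counting every probe set above the floor, 44 of 62 and 35 of 41 were lower, over more items. No member passed 1.5-fold under any scaling, floor, probe set summary or subunit assignment tried, nor 2-fold, while 6 passed a threshold of 0.2 on the log2 scale. The mean of probe sets above the floor was an alternative chosen after seeing the data. No paired analysis was possible because each treatment has 1 array.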
